A study of Mus musculus with 16 samples.

Results

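The comparison set 6 spleen RNA-seq libraries of PKR knockout (PKR KO) mice against 6 of wild-type (WT) mice over 3 time points of imiquimod treatment, out of 16 libraries in all. The members were chosen by the sample labels: PKR KO at days 0, 1 and 5 (6 libraries) and WT at days 0, 1 and 5 (6 libraries), with day as a covariate. Mice were male C57BL/6 and, apart from day 0, received 62.5 mg of 5% imiquimod cream each day on shaved back skin, a treatment used as a model of psoriasis. Cell suspensions were prepared from the spleens with a 70 µm mesh and lysis of red cells, and each stranded library, made from total RNA depleted of ribosomal RNA, pools 2 mice. Each of the 6 groups held 2 libraries from separate mice. The labels give no substrain of C57BL/6, no account of how the knockout allele was made or which exons it removes, and no group treated with cream lacking imiquimod. The question was which genes differed between the genotypes before treatment and still differed on days 1 and 5, and where on the chromosomes these genes lie.

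PKR, the product of Eif2ak2, is a kinase that binds double-stranded RNA and then phosphorylates the translation initiation factor eIF2α, which lowers protein synthesis and favours translation of the transcription factor ATF4. Eif2ak2 is itself induced by interferon. Imiquimod activates Toll-like receptor 7, which plasmacytoid dendritic cells and B cells of the spleen carry, and so elicits interferon. In knockout mice, genes linked to the targeted locus and genes that vary among substrains can differ between the genotypes apart from the loss of the targeted protein, which is why chromosome positions are given beside each difference.

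The 12 libraries held 35026754 to 67333830 fragments each, and 18435 of 55291 gene symbols passed the filter on low counts. Levels are given in CPM, the chosen transcript's counts relative to the library's fragments after TMM scaling, and differences as log2 of PKR KO over WT from edgeR's quasi-likelihood test in a model of day plus genotype. The scaling factors were 1.19 and 1.2 in the WT day 1 libraries and 0.933 to 1.07 in the other libraries. The spleen label was checked by marker lists: summed B cell markers reached 1326 to 2632 CPM in PKR KO libraries and 1374 to 2660 CPM in WT libraries, while 18 pancreatic markers, from tissue beside the spleen, summed to 1.46 to 12.8 CPM in PKR KO libraries and 1.35 to 9.64 CPM in WT libraries, with Ins1 at 0 in all 12. On day 2, Eif2ak2 in the library labelled PKR KO day 2 replicate 1 was at the WT level, which is why both genotypes of that day stand outside the comparison; their 4 libraries are given apart. A gene was called at an adjusted p under 0.05 (Benjamini-Hochberg over the 18435 genes), and its difference was named lasting where, in addition, both PKR KO libraries lay above or both lay below both WT libraries on each of the 3 days.

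5 genes were called, 0.0271% of those tested, and all 5 met the condition of lasting. The count depended on the settings: DESeq2 called 15, of which 12 were lasting, edgeR without WT day 0 replicate 2 called 15, of which 13 were lasting, and edgeR with day 2 added called 1. Ide, Eif2ak2, Fosb and Fgfbp3 were lower in PKR KO spleens (4 genes, 0.0217% of those tested), and Zkscan3 was higher (1 gene, 0.00542%). Without adjustment, 771 genes had a p under 0.05, which is 4.18% of those tested. Log2 differences of the called genes ran from -1.45 to 0.77. They lie on 4 chromosomes: Eif2ak2 on chromosome 17, Ide and Fgfbp3 near each other on chromosome 19, Zkscan3 on chromosome 13 and Fosb on chromosome 7.

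**Figure D1:**
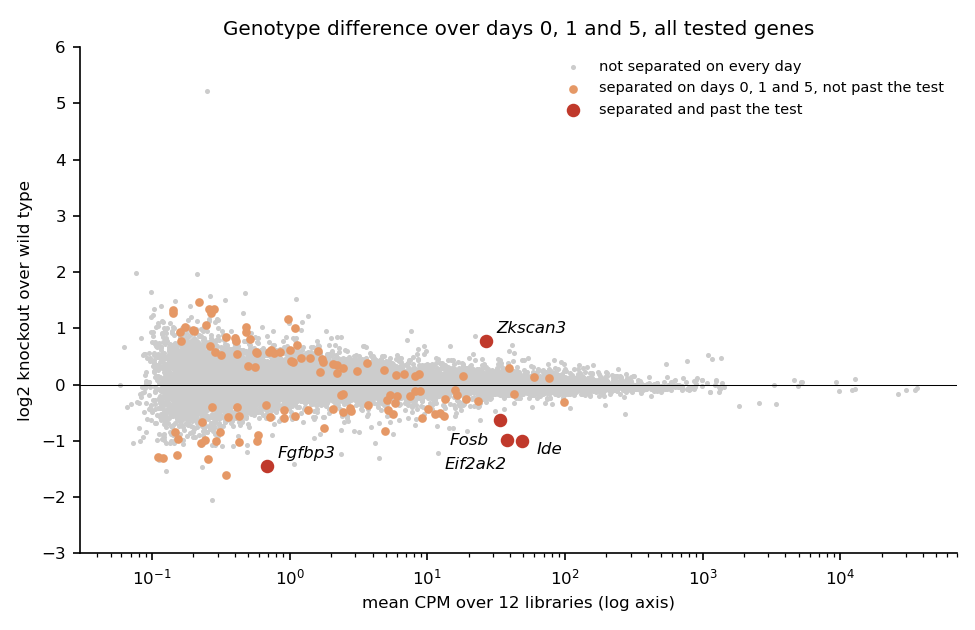
Log2 difference of PKR KO over WT (vertical axis) against mean CPM over the 12 libraries (horizontal axis, log scale) for the 18435 tested genes. Red points are the 5 called genes, orange points are genes whose libraries did not overlap between genotypes on days 0, 1 and 5 without passing the test, and grey points are the rest; of the 5, Fgfbp3 is at the low end of the level range.

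Eif2ak2, the targeted gene, lies on chromosome 17 (78852564 to 78882573, minus strand, mm10). The promoter is shown because the gene's level moved with the day in both genotypes. It is taken from RefSeq (GRCm38.p6, chr17:78882523-78882822, minus strand), from 250 bases before the start to 50 after it, and the capitals mark the single match to 2 copies of GAAA with any 2 bases between them, a core of the interferon-stimulated response element.

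Eif2ak2 promoter: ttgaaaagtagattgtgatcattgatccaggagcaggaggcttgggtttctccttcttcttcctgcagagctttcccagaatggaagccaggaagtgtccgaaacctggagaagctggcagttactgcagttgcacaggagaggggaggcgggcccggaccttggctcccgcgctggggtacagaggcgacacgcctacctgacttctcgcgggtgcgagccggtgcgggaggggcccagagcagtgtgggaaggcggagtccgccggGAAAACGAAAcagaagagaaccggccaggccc

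The match stands at bases 269 to 278 of the window, 19 to 28 bases after the annotated start. Both strands were searched, and 1131 of 32851 RefSeq promoter windows of the same length, or 3.44%, hold a match, so the motif is a description of this window and not a measured binding site.

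Eif2ak2 on day 0 stood at 12.4 and 15.4 CPM in PKR KO libraries, against 24.9 and 26.6 CPM in WT libraries. On day 1 it stood at 43.0 and 37.0 CPM in PKR KO libraries, against 101 and 96.1 CPM in WT libraries. On day 5 the values were 15.8 and 18.8 CPM in PKR KO libraries and 29.2 and 30.2 CPM in WT libraries. PKR KO libraries were lower than WT libraries on each day with no overlap, yet in no library was the transcript near 0. The log2 difference was -0.98 (SE 0.0904, edgeR adjusted p = 2.28e-05). Exchanging the genotype labels within each day (exact permutation test, two-sided) gave p = 0.00926, the smallest that the splits allow, for a level 1.97-fold lower in PKR KO spleens. Day 2 was left out for the level of this very gene. These values and their p-values therefore describe the days kept and are no independent test of Eif2ak2. With day 2 added the log2 difference was -0.78 (edgeR adjusted p = 0.728), or -0.79 by exact permutation (p = 0.00463). Levels in PKR KO spleens were 54.1% of the WT mean on day 0, 40.7% on day 1 and 58.2% on day 5. The mean on day 1 was 2.87 times that on day 0 in PKR KO spleens and 3.82 times in WT spleens, so the targeted gene's RNA was higher on day 1 in either genotype. A change of the genotype difference with day did not pass edgeR's interaction test (adjusted p = 0.373, unadjusted p = 0.0303). That test called 19 genes, 0.103% of those tested, and none of the 5 called genes was among them. The 5 had passed a model that favours a steady difference over the days, so their absence was largely set by that choice. With 2 libraries a group it does not show that their differences were constant.

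The annotated transcripts of Eif2ak2 share fragments, so their values are not independent. The retained-intron transcript at the 5′ end of the gene (78873778 to 78882548) had 1.5 and 1.64 CPM in PKR KO libraries on day 0, against 3.34 and 3.71 CPM in WT libraries. On day 1 it had 3.56 and 3.75 CPM in PKR KO libraries and 11.3 and 11.2 CPM in WT libraries, and on day 5 1.01 and 1.54 CPM in PKR KO libraries and 3.36 and 2.76 CPM in WT libraries. Its mean log2 difference was -1.16 (exact permutation p = 0.00926). The short transcript toward the 3′ end (78855354 to 78858980) overlapped between genotypes on day 0, with 1.24 and 1.92 CPM in PKR KO libraries and 1.52 and 2.06 CPM in WT libraries. Its mean log2 difference was -0.55 (exact permutation p = 0.0185). The p-values of both transcripts likewise describe days that were kept by the level of Eif2ak2. Whether these 2 differences differ from each other was not tested, and the files do not show which exons the allele lacks.

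**Figure D2:**
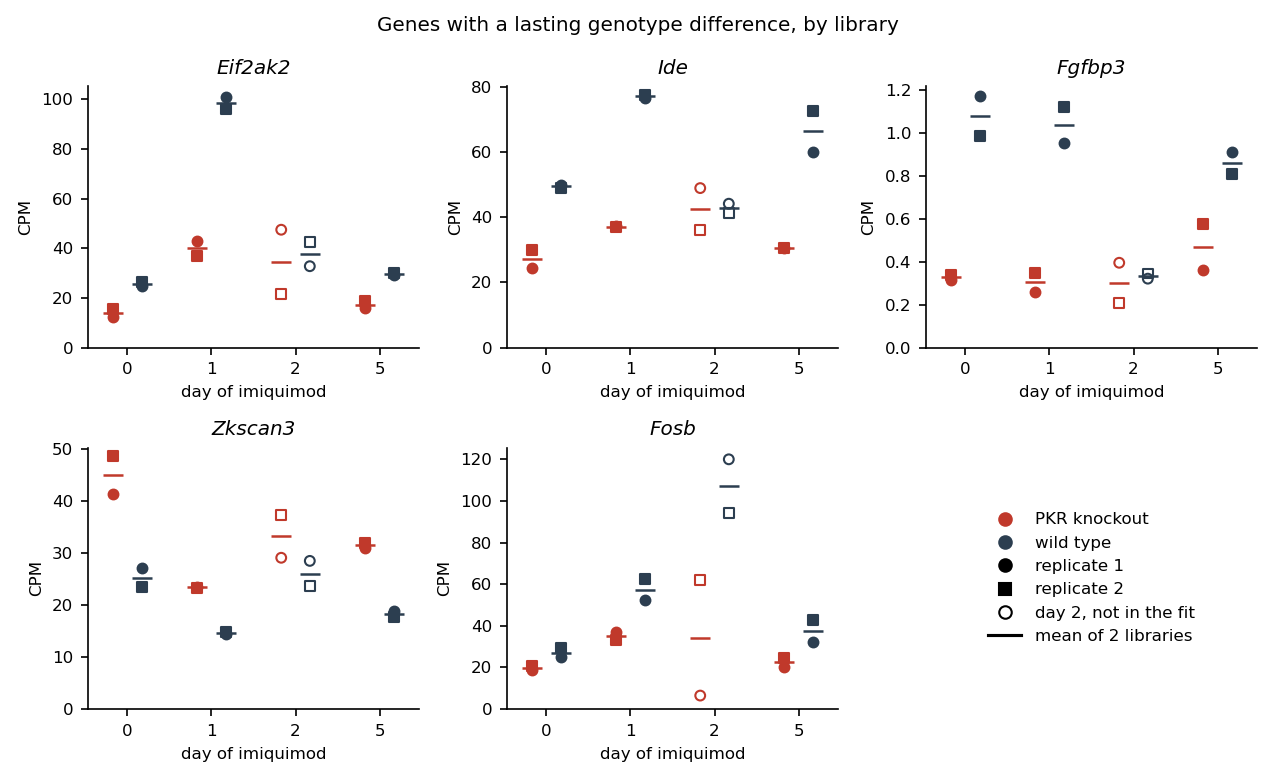
CPM (vertical axis) of the 5 called genes in each library by day of imiquimod (horizontal axis), PKR KO in red left of WT in dark blue, circles for replicate 1 and squares for replicate 2; lines are means of 2 libraries and open symbols are day 2, outside the fit. On days 0, 1 and 5 the red and blue symbols do not overlap within a day for any of the 5 genes, while on day 2 Fgfbp3 in WT stands at 0.321 and 0.345 CPM, where PKR KO libraries of the other days stand.

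Ide encodes insulin-degrading enzyme, a metalloprotease that cleaves insulin and amyloid β. Its kept transcript lies on chromosome 19 (37268743 to 37330613, minus strand, mm10). On day 0 it had 24.4 and 29.9 CPM in PKR KO libraries, against 50 and 49.1 CPM in WT libraries. On day 1 it had 37.3 and 36.9 CPM in PKR KO libraries and 76.8 and 77.7 CPM in WT libraries, and on day 5 30.5 and 30.7 CPM in PKR KO libraries and 60.2 and 72.8 CPM in WT libraries. The highest PKR KO library, at 37.3 CPM, was below the lowest WT library, at 49.1 CPM, so the genotypes did not overlap even across days. Ide was 2.01-fold lower in PKR KO spleens (log2 -1.01, SE 0.0732), with the smallest adjusted p of all genes tested (edgeR, 1.82e-06); with day 2 added it was -0.77 (adjusted p = 0.255). Levels in PKR KO spleens were 54.9%, 48.0% and 46.0% of the WT mean on days 0, 1 and 5.

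Fgfbp3 encodes a secreted protein that binds fibroblast growth factors. It lies on chromosome 19 (36917550 to 36919615, minus strand), and the lowest coordinates of Fgfbp3 and Ide are 351 kb apart. On day 0 it had 0.316 and 0.338 CPM in PKR KO libraries, against 1.17 and 0.984 CPM in WT libraries. On day 1 the values were 0.261 and 0.348 CPM in PKR KO libraries and 0.952 and 1.12 CPM in WT libraries, and on day 5 0.363 and 0.574 CPM in PKR KO libraries and 0.909 and 0.807 CPM in WT libraries. These levels rest on 11 to 19 counts per library in PKR KO and 33 to 87 in WT, and again the ranges did not overlap across days. Fgfbp3 was 2.73-fold lower in PKR KO spleens (log2 -1.45, SE 0.211, edgeR adjusted p = 0.00942). The call did not hold without day 0 (adjusted p = 0.105), without day 1 (0.278), with day 2 added (0.156), with a replicate block (0.0955), or without PKR KO day 0 replicate 1 (0.0502) or replicate 2 (0.0535).

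3 tested genes lie between Fgfbp3 and Ide. Btaf1, an ATPase that removes TATA-binding protein from DNA, starts 6463 bases from Fgfbp3. It had 67.6, 87.4, 75.6, 70.3, 113 and 101 CPM in PKR KO libraries (days 0, 1 and 5, replicates 1 and 2), against 86.0, 94.6, 92.0, 98.8, 127 and 147 CPM in WT libraries. On day 0 the higher PKR KO library, at 87.4 CPM, lay above the lower WT library, at 86.0 CPM, with scaling over all 16 libraries, and not with scaling over the 12 of the fit. The log2 difference of -0.31 (SE 0.0759) did not pass (edgeR adjusted p = 0.630). Cpeb3, an RNA-binding regulator of translation, and Marchf5, a mitochondrial ubiquitin ligase, had log2 differences of 0.25 (SE 0.150) and 0.13 (SE 0.0987), neither separated on every day. As background, the segment of chromosome 19 that holds Ide and Fgfbp3 is known to vary in copy number within C57BL/6J colonies. Copy number was not measured here, and its part in these differences was not tested.

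Zkscan3 encodes a zinc finger protein with KRAB and SCAN domains, described as a repressor of autophagy genes. Its kept transcript lies on chromosome 13 (21389293 to 21402695, minus strand). On day 0 it had 41.3 and 48.6 CPM in PKR KO libraries, against 27.1 and 23.5 CPM in WT libraries. On day 1 the values were 23.5 and 23.3 CPM in PKR KO libraries and 14.5 and 14.9 CPM in WT libraries, and on day 5 31.0 and 32.0 CPM in PKR KO libraries and 18.9 and 17.7 CPM in WT libraries. PKR KO libraries were higher on every day, while both genotypes were lowest on day 1. The level of this transcript was 1.71-fold higher in PKR KO spleens (log2 0.77, SE 0.0694, edgeR adjusted p = 2.28e-05), at 178%, 159% and 172% of the WT mean on days 0, 1 and 5. With all transcripts of Zkscan3 summed, the log2 difference was smaller, at 0.49 (edgeR adjusted p = 0.0268).

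Fosb encodes a subunit of the AP-1 transcription factor and belongs to the immediate-early genes, which respond within minutes to many stimuli, tissue handling included. It lies on chromosome 7 (19302696 to 19310051, minus strand). On day 0 it had 18.7 and 20.6 CPM in PKR KO libraries, against 24.9 and 29.4 CPM in WT libraries. On day 1 the values were 37.0 and 33.2 CPM in PKR KO libraries and 52.3 and 62.6 CPM in WT libraries, and on day 5 20.3 and 24.6 CPM in PKR KO libraries and 32.1 and 42.8 CPM in WT libraries. PKR KO libraries were lower on each day, with a smaller gap than for Ide or Eif2ak2. Fosb was 1.55-fold lower in PKR KO spleens (log2 -0.63, SE 0.0895, edgeR adjusted p = 0.00833). The call did not hold without day 1 (adjusted p = 0.190), without day 5 (0.211), with day 2 added (0.958) or with a transcript of any type (0.165).

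Fosb belongs to a list of 22 immediate-early and heat shock genes, of which it was the 1 gene called, beside 0.0271% of all tested genes. Of the 22, 19 had a negative log2 difference, 6 had an unadjusted p under 0.05 (beside 4.18% of all tested genes), and the median was -0.14, against 0.00 over all tested genes. Fos, which pairs with Jun proteins, had a log2 difference of -0.41 (SE 0.129, edgeR adjusted p = 0.943), and Jun of -0.24 (SE 0.0816, adjusted p = 0.980). The summed level of the list on day 0 was 3293 and 3154 CPM in PKR KO libraries, above both WT libraries at 3068 and 3135 CPM. It was below both WT libraries on day 1 (2226 and 2361 CPM in PKR KO, 3019 and 3404 CPM in WT) and on day 5 (1568 and 1555 CPM in PKR KO, 1635 and 1851 CPM in WT). A large part of the sum was Hspa8, a heat shock gene, at 1475 and 1538 CPM in PKR KO and 1343 and 1304 CPM in WT libraries on day 0. The sum therefore says little about the immediate-early genes. The part of handling in the Fosb difference was not tested.

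The call threshold fell between Fgfbp3 and Gm6548. Gm6548 (adjusted p = 0.0828), Entpd4b (0.0944) and Entpd4 (0.164) were the next genes by p, and in all 3 the libraries of the 2 genotypes did not overlap on days 0, 1 and 5. Nnt (0.390) is given beside them because it is a gene known to differ among C57BL/6 substrains.

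Gm6548 is a processed pseudogene on chromosome 17 (78850792 to 78851956), on the same strand as Eif2ak2 and 607 bases beyond its annotated 3′ end. On day 0 it had 8.83 and 8.66 CPM in PKR KO libraries, against 9.90 and 10.3 CPM in WT libraries. On day 1 the values were 14.2 and 13.6 CPM in PKR KO libraries and 26.8 and 26.6 CPM in WT libraries, and on day 5 7.51 and 8.49 CPM in PKR KO libraries and 11.3 and 11.9 CPM in WT libraries. Like Eif2ak2, the pseudogene was highest on day 1 in both genotypes, and its level in PKR KO spleens was 86.7%, 52.0% and 69.0% of the WT mean on days 0, 1 and 5. Its log2 difference was -0.56 (SE 0.0992). Fragments from transcripts that run past the end of Eif2ak2 would count toward this pseudogene, and their share was not tested.

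Entpd4 and Entpd4b encode nucleotide-hydrolysing enzymes of the Golgi and lysosome. Their kept transcripts are identical over 3589 bases and lie 218 kb apart on chromosome 14 (69337174 and 69555424 are their first bases), so fragments of one cannot be told apart from those of the other. Entpd4b had 10.9, 9.90, 10.9, 7.95, 8.99 and 6.80 CPM in PKR KO libraries (days 0, 1 and 5, replicates 1 and 2), against 13.3, 14.1, 14.5, 14.4, 11.4 and 12.4 CPM in WT libraries. Every PKR KO library was below every WT library, and the log2 difference was -0.52 (SE 0.0950). Entpd4 ran from 3.81 to 5.14 CPM in PKR KO libraries and from 5.70 to 7.66 CPM in WT libraries, with the same log2 difference of -0.52 (SE 0.0997). Gm16867, a predicted protein-coding gene between them, varied within genotypes, with 4.11, 4.13, 1.07, 0.225, 33.7 and 2.78 CPM in PKR KO libraries and 5.19, 9.18, 3.48, 3.04, 40.4 and 33.3 CPM in WT libraries. Its log2 difference of -1.22 had an SE of 0.575 and did not pass (edgeR adjusted p = 1.00).

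Nnt encodes the proton-pumping transhydrogenase of the inner mitochondrial membrane, of which C57BL/6J mice carry a deletion. It ran from 11 to 15.1 CPM in PKR KO libraries and from 8.98 to 12.5 CPM in WT libraries, with an overlap on day 0. Its log2 difference was 0.45 (SE 0.0970). Of 9 genes listed as known to differ among C57BL/6 substrains, 1 was called (Ide), beside 0.0271% of all tested genes. 3 were separated on each day (Ide, Entpd4 and Entpd4b, beside 0.635%), of which the last 2 share their sequence and are not independent, and Nnt was the fourth with an unadjusted p under 0.05 (beside 4.18%). Wdfy1, Cyfip2 and Nlrp12, also on the list, had log2 differences of -0.04, -0.03 and 0.05. The substrain of either genotype is not given, so the origin of the colonies and the knockout allele cannot be told apart as sources of these differences.

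**Figure D3:**
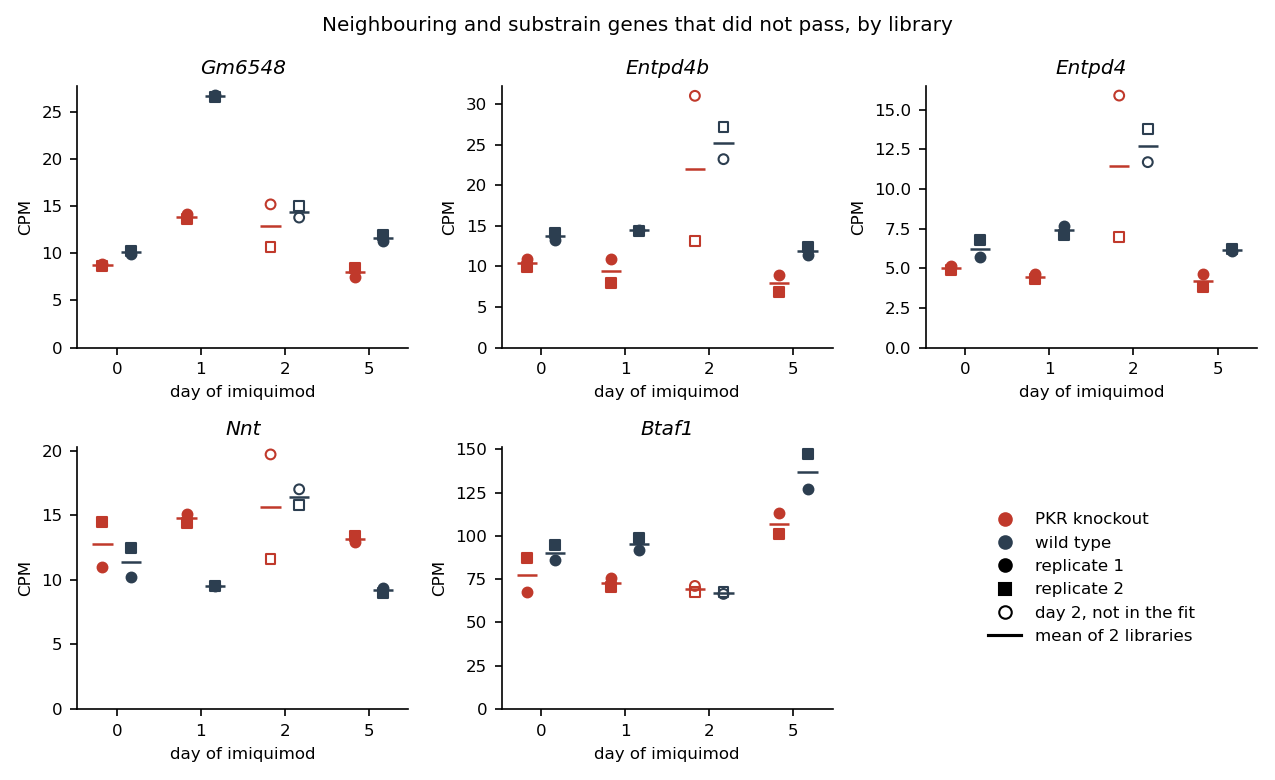
CPM (vertical axis) by library and day (horizontal axis) of Gm6548, Entpd4b, Entpd4, Nnt and Btaf1, drawn as for the called genes (PKR KO red and left, WT dark blue, open symbols day 2). On day 2 the 2 PKR KO libraries of Entpd4b lie on either side of the WT libraries, at 31.0 and 13.1 CPM, against 23.2 and 27.2 CPM in WT.

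Beyond the called genes, 112 genes had libraries that did not overlap between genotypes on days 0, 1 and 5. With the called genes these were 117, or 0.635% of those tested. Of these, 59 were lower in PKR KO spleens (0.320%) and 58 higher (0.315%). Exchange of labels within each day would by itself separate a gene in the same direction on every day with a probability of 0.00926. That is the smallest p of the exact permutation test, and the observed 0.635% is below this fraction. Separation alone therefore does not show a genotype difference, and the genes are described without that claim. Of the 117, 70 were protein-coding, 55 had a mean level under 1 CPM, 52 had a log2 difference smaller than 0.5 in size and 22 one of 1 or more. Their differences ran from -1.61 to 1.46. Among them, picked after their values were seen, were Fabp5, a fatty acid-binding protein, at 2.70 to 16.6 CPM in PKR KO libraries and 3.49 to 21.4 CPM in WT libraries (log2 -0.43, SE 0.0943, edgeR adjusted p = 0.390), and Cd163l1, a scavenger receptor of γδ T cells, at 0.784 to 1.71 CPM in PKR KO libraries and 0.232 to 1.17 CPM in WT libraries (log2 1.17, SE 0.256, adjusted p = 0.390). These counts use scaling over the 12 libraries of the fit; with scaling over all 16, as for the levels printed here, 118 genes were separated on each day, 102 of them in both counts, the 5 called genes included.

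By chromosome, the 117 genes fell on 20 chromosomes. The shares carry the same limit, since separation alone does not show a genotype difference. The share of tested genes separated on every day was 1.39% on chromosomes 9 (14 of 1010) and 14 (10 of 717), 1.23% on chromosome 3 (12 of 972) and 1.00% on chromosome 19 (6 of 600). On chromosome 17, which holds Eif2ak2, it was 0.551% (5 of 907), beside 0.635% over all chromosomes. Chromosome 13, which holds Zkscan3, had 2 of 747 (0.268%), and chromosome 7, which holds Fosb, had 8 of 1392 (0.575%). The separated genes of chromosome 3 were higher in PKR KO spleens in 9 of 12, and those of chromosome 19 in 2 of 6.

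**Figure D4:**
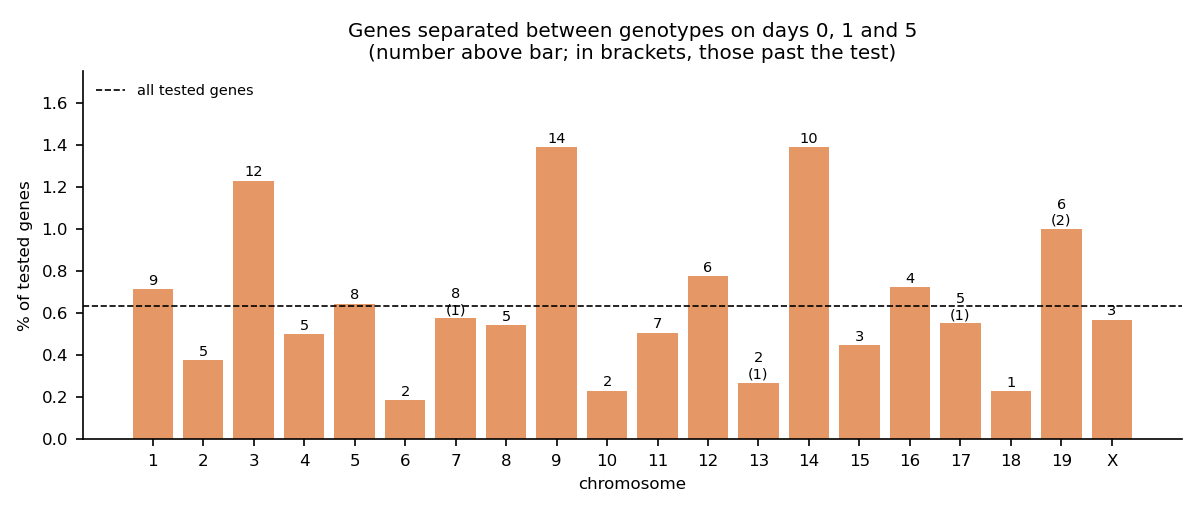
Percentage of tested genes (vertical axis) whose libraries did not overlap between PKR KO and WT on days 0, 1 and 5, for each chromosome (horizontal axis), with the number above each bar and, in brackets, the number called. The dashed line is the 0.635% of all tested genes; chromosome 17 stands at 0.551%, below it.

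No other gene within 20 Mb of Eif2ak2 was called. Within 1 Mb on either side, 16 other genes were tested and 1, Gm6548, was separated on every day (6.25%, beside 0.635% of all tested genes). Within 10 Mb 1 of 116 others was separated (0.862%), and within 20 Mb 2 of 150 (1.33%). The median log2 difference of the 116 was 0.01. Around Ide 1 of 21 others within 1 Mb was called (Fgfbp3) and 2 were separated, with a median of -0.02. Around Zkscan3 none of 37 others within 1 Mb and none of 254 within 20 Mb was separated, and around Fosb none of 48 within 1 Mb. The called difference of Zkscan3 thus had no separated neighbour at any distance examined, and windows hold too few genes for a rate to be compared between them.

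**Figure D5:**
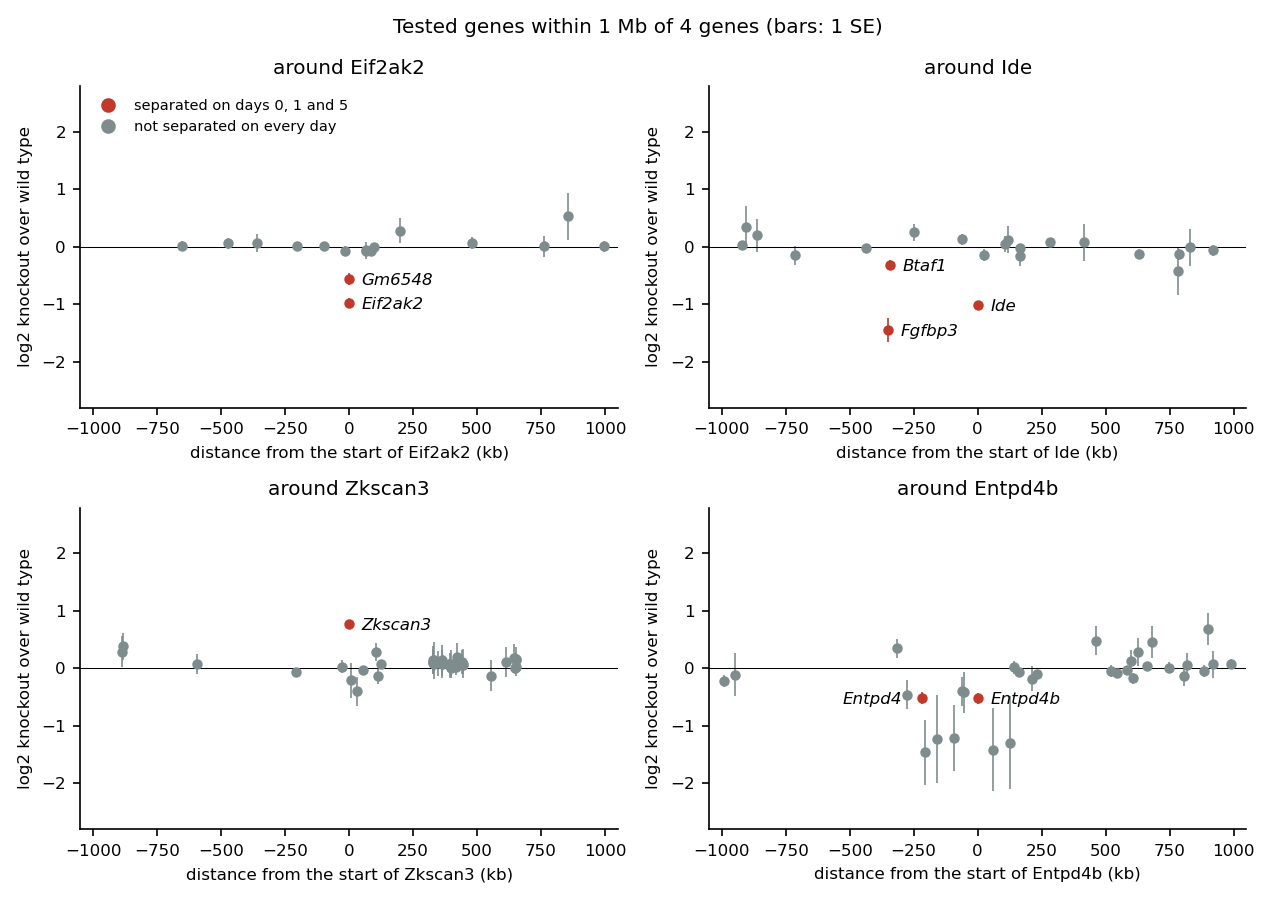
Log2 difference of PKR KO over WT (vertical axis, bars 1 SE) of tested genes within 1 Mb of Eif2ak2, Ide, Zkscan3 and Entpd4b, by distance between lowest coordinates in kb (horizontal axis). Red points were separated on days 0, 1 and 5: Eif2ak2 with Gm6548, Ide with Fgfbp3 and Btaf1, Zkscan3 alone, and Entpd4b with Entpd4.

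The pathway of PKR was described from gene lists. Of 19 genes for the eIF2α kinases, eIF2 and its regulators, Eif2ak2 was the 1 called, beside 0.0271% of all tested genes. The other kinases, Eif2ak1 (HRI, sensing haem), Eif2ak3 (PERK, sensing misfolded protein in the endoplasmic reticulum) and Eif2ak4 (GCN2, sensing amino acid shortage), had log2 differences of 0.18 (SE 0.0929), -0.08 (SE 0.0598) and 0.04 (SE 0.0712). None of 30 tested ATF4 targets was called, with a median of 0.04. Atf4 itself ran from 84.5 to 134 CPM in PKR KO libraries and from 81.5 to 140 CPM in WT libraries. Asns, the asparagine synthetase that ATF4 activates, had a log2 difference of 0.24 (SE 0.215). Beyond Eif2ak2 no gene of these lists was called. With 0.0271% of all tested genes called, lists of this size would seldom hold a called gene, so the counts say little about the pathway. With 2 libraries a group they do not show that the levels were equal.

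Interferon-stimulated genes were described likewise. None of 37 tested was called, beside 0.0271% of all tested genes (median -0.08, with 30 negative and 7 positive). Irf7, the transcription factor that amplifies type I interferon, ran from 17 to 171 CPM in PKR KO libraries and from 14.1 to 241 CPM in WT libraries (log2 -0.13, SE 0.162). Isg15, a ubiquitin-like modifier, was 10.7 times as high on day 1 as on day 0 in PKR KO spleens and 13.6 times in WT spleens (genotype log2 -0.04, SE 0.194). None of 24 double-stranded RNA sensors and modifiers (median -0.02), 26 NF-κB targets and inflammatory cytokines (median -0.02) or 25 MHC genes of chromosome 17 (median -0.08) was called. At 0.0271% of all tested genes, these counts say little about the lists.

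Cell type markers were read over whole lists, since in bulk RNA fewer cells of a type and less RNA per cell cannot be told apart. None of the lists for cell types held a called gene, beside 0.0271% of all tested genes called. All 10 plasma cell markers had negative log2 differences (median -0.29), and 6 of the 10 had an unadjusted p under 0.05, beside 4.18% of all tested genes. Their sums overlapped on day 0, at 287 and 337 CPM in PKR KO libraries and 342 and 300 CPM in WT libraries. They did not overlap on day 1 (496 and 471 CPM in PKR KO, 612 and 537 CPM in WT) or on day 5 (404 and 527 CPM in PKR KO, 597 and 765 CPM in WT). Fkbp11, a chaperone-like isomerase of secretory cells, was separated on each day (log2 -0.48, SE 0.133, edgeR adjusted p = 0.747). All 19 erythroid precursor markers had positive differences (median 0.29), none with an unadjusted p under 0.05. Their sums were 1156 and 1863 CPM in PKR KO libraries and 590 and 1462 CPM in WT libraries on day 0, and 210 and 487 CPM in PKR KO libraries and 599 and 244 CPM in WT libraries on day 1, with overlap on both days. On day 5 they were 25018 and 18318 CPM in PKR KO libraries and 13083 and 9686 CPM in WT libraries, without overlap. Other lists leaned to 1 side too: 13 T cell markers were negative and 1 positive, and 14 macrophage markers were positive and 1 negative. Of ribosomal protein genes, 25 were negative and 1 positive, and all 13 mitochondrially encoded transcripts were positive. None of these lists held an unadjusted p under 0.05, and neutrophil markers were split 7 to 7. Signs within a list come from the same libraries and are not independent. The part of plasma cells or erythroid precursors in the called differences was not tested. Over all 26 lists, 410 distinct genes were tested and 3 were called (Eif2ak2, Ide and Fosb), beside 0.0271% of all tested genes. Of the 410, 7 were separated on each day, 1.71% beside the 0.635% of all tested genes. The lists were drawn up with earlier results known, and 1 of them holds genes already known to vary.

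The 4 libraries of day 2 entered none of the tests above except those given with day 2 added. They did enter the choice of transcript and the scaling of the printed levels. Eif2ak2 in the library labelled PKR KO day 2 replicate 1 had 47.5 CPM, above both WT day 2 libraries at 32.8 and 42.5 CPM. PKR KO day 2 replicate 2 had 21.5 CPM, below both. The same library, replicate 1, also lay above both WT libraries of its day for Ide, Fgfbp3, Entpd4b, Entpd4 and Gm6548, at 105% to 126% of the WT mean with Eif2ak2 included. Replicate 2 lay below both for each of these 6 genes, at 52.1% to 84.3%. Of all tested genes, 35.2% lay above both in replicate 1 and 42.6% below both in replicate 2. The 6 genes are not independent, since Entpd4 and Entpd4b share their sequence and the others lie near one another in pairs. Btaf1 lay above both WT libraries in both replicates, at 106% and 101% of the WT mean. Nnt, which had a positive difference on the other days, stood at 120% of the WT mean in replicate 1 and at 70.7% in replicate 2. Ide had 49.0 and 36.1 CPM in PKR KO day 2 libraries and 44.2 and 41.3 CPM in WT day 2 libraries. Fgfbp3 had 0.395 and 0.206 CPM in PKR KO and 0.321 and 0.345 CPM in WT on that day.

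The WT day 2 libraries of these 2 genes of chromosome 19 stood apart from the other WT libraries. For Fgfbp3 both lay inside the range of the PKR KO libraries of days 0, 1 and 5 (0.261 to 0.574 CPM) and below that of the WT libraries (0.807 to 1.17 CPM). For Ide both lay between the PKR KO range (24.4 to 37.3 CPM) and the WT range (49.1 to 77.7 CPM). For Zkscan3 all 4 libraries kept the order of the other days, with 29.1 and 37.3 CPM in PKR KO and 28.5 and 23.6 CPM in WT. Fosb had 6.49 and 62.0 CPM in PKR KO and 120 and 94.1 CPM in WT on day 2, with both PKR KO libraries below both WT libraries. Of the 16544 genes tested on day 2, 16.5% had both PKR KO libraries above both WT libraries and 15.9% had both below. The Fosb value of 6.49 CPM is that of PKR KO day 2 replicate 1. The 22 immediate-early and heat shock genes summed to 1715 and 3605 CPM in PKR KO replicates 1 and 2 on day 2, against 3272 and 4045 CPM in WT.

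None of 16544 genes was called on day 2 with all 4 libraries (edgeR, 0%); 627 (3.79%) had an unadjusted p under 0.05, and DESeq2 called 5. Without the library labelled PKR KO day 2 replicate 1, 190 of 17524 were called (1.08%), with a single PKR KO library whose spread is assumed to be that of WT. In that fit Zkscan3 had a log2 difference of 0.56 (edgeR adjusted p = 0.0433), Fosb of -0.74 (0.0250), Entpd4b of -0.90 (0.00411) and Entpd4 of -0.84 (0.0209). Eif2ak2 had -0.77 (0.0573), Ide -0.20 (0.5) and Fgfbp3 -0.65 (0.776). Of the 59 genes separated downward on the other days, PKR KO day 2 replicate 1 lay below both WT libraries in 21 (35.6%) and replicate 2 in 32 (54.2%), beside 37.2% and 42.6% of all tested genes. Of the 58 separated upward, replicate 1 lay above both in 28 (48.3%) and replicate 2 in 31 (53.4%), beside 35.2% and 33.8%.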

How the data were processed

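Libraries were grouped by the sample labels. Per the file headers, the deposited tables hold a fragment count for each transcript. FPM, a coverage signal as deposited, is that count over the library's total fragments, and FPKM, as computed by the authors, is FPM per kilobase of transcript. The submitters' processing notes name mm10, bcl2fastq 2.17.1.14, Trimmomatic, HISAT2 and TopHat; the counting program is not given in the sources used here. Fragments shared by isoforms are counted in each, so 1 transcript was kept for each symbol, the protein-coding one with the highest mean count, or the highest of any type where a symbol had none. The members and gene lists were chosen with earlier results of these data known.

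Counts were filtered with filterByExpr and tested with edgeR 4.0.16 (TMM, library size as total fragments, robust quasi-likelihood F test, two-sided, 8 residual degrees of freedom, adjusted by Benjamini-Hochberg over all genes). Each library pools 2 mice, and the biological coefficient of variation between libraries was 13.9%. The script was tested on simulated data. Alternatives included DESeq2 1.42.0, limma 3.58.1 on log2 FPKM, other filters, other transcripts, other days and each library left out. The named genes are Eif2ak2, lasting genes ranked by change with predicted genes left out, and called list members; Fgfbp3, whose FPKM was under 1, and the genes next to the threshold or near a called gene were named after their values were seen. Coordinates are from GENCODE release M21 (mm10), which held 99.1% of the transcripts.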

Additional observations from a re-analysis of the deposited data

Results flagged for a closer look

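The genotype difference changed over days 0, 1 and 5 in 19 genes by edgeR's quasi-likelihood interaction test (0.103% of those tested, adjusted p under 0.05), a count that ran from 0 to 441 with 1 library left out; 2124 genes (11.5%) had an unadjusted p under 0.05. None of the 19 was among the 5 lasting genes, which had been chosen for a difference that held on each day. They comprised 9 protein-coding genes, 5 small nucleolar RNAs, 1 small Cajal body RNA, 3 immunoglobulin variable segments and Snhg3, a host transcript of small nucleolar RNAs. Bicra, a subunit of a chromatin-remodelling complex, had log2 ratios of PKR KO over WT of -0.92 on day 0, 1.24 on day 1 and 0.26 on day 5 (adjusted p = 0.0318). Snora73a, one of the small nucleolar RNAs, had 0.68, -0.48 and -0.22 (adjusted p = 0.0318). Snora73b and Snhg3, on chromosome 4 as Snora73a is, had 0.48, -0.86 and -0.15, and 0.67, -0.45 and -0.25. Whether these calls are independent of one another was not tested. Ighv1-81, a variable segment, had 0.84, -0.15 and -0.92 (adjusted p = 0.0318). All 5 small nucleolar RNAs were positive on day 0 and negative on day 1, a day on which the WT libraries had scaling factors of 1.19 and 1.2. The part of that difference in scaling was not tested. No gene of the 19 passed in either limma fit, with an FPKM filter or with summed transcripts, each of which called 0 genes.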

How the results depend on the processing

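The 5 called genes kept their direction under every one of the 27 alternatives in which they were tested. Zkscan3 stayed lasting in all 27, Ide and Eif2ak2 in 26, Fosb in 23 and Fgfbp3 in 20. Ide and Eif2ak2 were lost only with day 2 added (log2 -0.77, adjusted p = 0.255, and -0.78, adjusted p = 0.728). The alternatives without day 2 used only days kept by the level of Eif2ak2, and day 2 was also added without PKR KO day 2 replicate 1. The tally is therefore no independent test of Eif2ak2. The counts of genes called and of lasting genes were 167 and 28 with no filter, 15 and 12 with DESeq2, 10 and 8 with 1 mean per group, 9 and 9 without day 0, 3 and 3 without day 1, 1 and 1 with day 2 added, and 8 and 8 with day 2 added without PKR KO day 2 replicate 1. Leaving out 1 library gave 4 to 15 called and 4 to 13 lasting, with 15 and 13 without WT day 0 replicate 2. Gm6548 was lasting under 7 alternatives, Entpd4 and Entpd4b under 3.

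The count for the interaction rested on single libraries: leaving out 1 gave 0 to 441, with 441 without WT day 0 replicate 1, 125 without PKR KO day 5 replicate 2, 50 without PKR KO day 0 replicate 1, 34 without WT day 1 replicate 1, 6 without WT day 1 replicate 2 or PKR KO day 0 replicate 2, 5 and 1 without PKR KO day 1 replicates 1 and 2, and 0 without WT day 5 replicate 2 or PKR KO day 5 replicate 1. It was 701 with no filter, 262 with DESeq2 and 0 with an FPKM filter, with either limma fit and with summed transcripts. On day 2, no filter gave 80 called, DESeq2 5, and leaving out 1 library 0 to 190, with 190 and 164 without PKR KO replicates 1 and 2 and 1 without WT replicate 2. The causes were not tested.

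Same-numbered libraries deviated together by correlations of 0.334, -0.181 and -0.164 on days 0, 1 and 5, so the numbers were not taken to pair them. With a replicate block, 4 genes were called and lasting, 10 passed the interaction and 74 passed on day 2; Fgfbp3 was lost (log2 -1.45, adjusted p = 0.0955), and Eif2ak2 kept -0.98 (exact p = 0.0312 over 64 sign flips). Eif2ak2 by permutation ran from -1.03 to -0.93 with 1 library left out. Fgfbp3, at 11 to 19 counts in PKR KO libraries, was also lost without day 0, without day 1, with day 2 added and without either PKR KO day 0 library, and was not tested with an FPKM filter; Fosb was lost without day 1, without day 5, with day 2 added and with a transcript of any type. With 2 libraries a group, small differences are beyond reach.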
